A study of Mus musculus with 6 samples.

Results

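The genes described here are 48 enzymes of fatty acid metabolism, taken by symbol from a list, out of 17025 genes measured by RNA-seq in newborn mouse epidermis. All 48 had a row in the deposited expression table, and 47 had the mean of at least 1 FPKM (fragments corrected for gene length and library size) that was required for a test. The exception was the elongase gene Elovl3. They divide into 17 genes of mitochondrial oxidation, 11 of chain elongation, 6 thioesterases, 4 of acyl-CoA activation, 4 of desaturation, and 2 each of peroxisomal oxidation, fatty acid synthesis and triacylglycerol synthesis.

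The libraries came from epidermal progenitor cells sorted on postnatal day 0 for integrin α6, a laminin receptor of basal keratinocytes. Of the 6 libraries, 3 were labelled conditional knockout (cKO), with the genotype K14Cre,Ash2lF/F, and 3 were labelled control, with K14Cre,Ash2lF/+, so that both groups carried the Cre transgene driven by the keratin 14 promoter and at least 1 floxed allele of Ash2l. The keratin 14 promoter is active in basal keratinocytes. Ash2l encodes a shared subunit of the histone H3 lysine 4 methyltransferases.

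Fatty acids are activated to acyl-CoA by acyl-CoA synthetases and then take one of several routes. Mitochondrial oxidation begins with the carnitine palmitoyltransferases, which serve the entry of long chains into mitochondria. It proceeds through repeated cycles of dehydrogenation, hydration, a second dehydrogenation and thiolysis. In the endoplasmic reticulum, an elongation cycle of condensation, reduction, dehydration and reduction lengthens the chain, and in epidermis the very long chains so made enter the ceramides of the permeability barrier.

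The targeted gene did not follow the labels. Ash2l had 30.9, 29.5 and 22.9 FPKM in the libraries labelled cKO 1, 2 and 3, against 12.4, 18.1 and 15.9 FPKM in those labelled control 1, 2 and 3 (log2 difference 0.81, SE 0.19, n = 3 per group; limma adjusted p = 0.0240). That call was lost with a replicate block (adjusted p = 0.0613) and without the library labelled cKO 1, cKO 2, control 1 or control 3 (adjusted p = 0.0828, 0.0808, 0.0564 and 0.0670). Reads summed over a whole gene do not tell a recombined allele from an intact one, so the groups are named by their labels throughout and every direction rests on those labels. The libraries held 31578875 to 36027550 fragments, and each of the 47 tested genes had at least 59 fragments in every library. The 7 basal keratinocyte markers, Krt5 and Krt14 among them, summed to 8002 to 10445 FPKM in the libraries labelled cKO and 4878 to 8503 FPKM in those labelled control, so basal keratinocyte transcripts were present in every library. Of the 7, Krt15 was higher in the libraries labelled cKO (log2 difference 2.23, limma adjusted p = 0.00215) and Itgb4 lower (-1.70, limma adjusted p = 0.0438, and 0.0524 with median-of-ratios scaling). Krt15 had 2265 to 3681 FPKM in the libraries labelled cKO, against 422 to 754 FPKM in those labelled control. Itga6, which encodes the integrin of the sort, had 53.6, 53.0 and 19.7 FPKM in the libraries labelled cKO, against 162, 78.8 and 72.05 FPKM in those labelled control, and was not called (limma adjusted p = 0.0710). Beside these basal markers, spinous keratinocyte markers summed to 34674 to 68031 FPKM in the libraries labelled cKO and 4578 to 6437 FPKM in those labelled control.

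The promoters of Hadhb, Cpt1a and Elovl4 are printed because these genes of oxidation and elongation were among the steadiest calls, and those of Acot1 and Acot2 because only one gene of that neighbouring pair was called. Each is the 250 bases upstream of the annotated start, read 5′ to 3′ on the gene's strand, from RefSeq on GRCm38.p6, an earlier build than the GRCm39 of the deposited values. Capitals mark exact matches on either strand to any of the motifs searched. The GC box, bound by factors of the Sp family, was spelled GGGCGG. The box named CCAAT, bound by factor NF-Y, was searched under those letters. The half-site of nuclear receptors such as the PPARs was spelled AGGTCA. The sterol element was spelled TCACNCCAC, with N for any base, and the box of the core promoter TATAAA. The NRF1 site was spelled as GCGCA, then any single base, then GCGC. The windows are Hadhb at chr5:30155003-30155252, Cpt1a at chr19:3323051-3323300, Acot1 at chr12:84009252-84009501 and Acot2 at chr12:83987611-83987860 on the plus strand, and Elovl4 at chr9:83806306-83806555 on the minus strand. The Hadhb window also lies upstream of Hadha, since the 2 genes are head to head with 272 bases between their starts.
Hadhb: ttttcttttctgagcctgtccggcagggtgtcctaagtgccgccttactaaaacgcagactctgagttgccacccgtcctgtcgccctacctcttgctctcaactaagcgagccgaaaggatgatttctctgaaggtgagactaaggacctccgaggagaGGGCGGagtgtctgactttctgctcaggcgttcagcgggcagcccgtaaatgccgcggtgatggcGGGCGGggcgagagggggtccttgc
Cpt1a: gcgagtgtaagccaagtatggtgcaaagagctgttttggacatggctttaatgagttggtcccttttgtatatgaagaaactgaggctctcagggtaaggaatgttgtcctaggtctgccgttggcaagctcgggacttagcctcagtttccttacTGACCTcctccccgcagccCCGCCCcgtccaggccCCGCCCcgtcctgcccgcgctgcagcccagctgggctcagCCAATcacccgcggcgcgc
Elovl4: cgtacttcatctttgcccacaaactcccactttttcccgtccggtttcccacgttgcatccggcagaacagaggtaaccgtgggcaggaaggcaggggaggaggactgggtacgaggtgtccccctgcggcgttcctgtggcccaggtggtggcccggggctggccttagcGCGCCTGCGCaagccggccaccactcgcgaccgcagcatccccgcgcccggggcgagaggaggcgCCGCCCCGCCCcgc
Acot1: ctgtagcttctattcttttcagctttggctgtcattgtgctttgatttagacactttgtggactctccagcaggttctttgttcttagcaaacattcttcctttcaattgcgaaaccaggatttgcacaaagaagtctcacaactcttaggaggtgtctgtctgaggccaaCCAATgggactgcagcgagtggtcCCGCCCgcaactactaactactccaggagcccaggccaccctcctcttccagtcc
Acot2: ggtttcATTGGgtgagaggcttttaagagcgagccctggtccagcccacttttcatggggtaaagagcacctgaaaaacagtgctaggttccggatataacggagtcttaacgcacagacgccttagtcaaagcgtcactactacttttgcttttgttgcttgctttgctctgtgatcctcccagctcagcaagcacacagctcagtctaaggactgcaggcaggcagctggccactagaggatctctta

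The Hadhb window held 2 GC boxes, the Cpt1a window 2 GC boxes, 1 CCAAT box and 1 half-site, and the Elovl4 window 1 NRF1 site and 2 GC boxes that overlap each other. Acot1 had 1 GC box and 1 CCAAT box, and Acot2 had 1 CCAAT box. Of the 48 genes, 40 were matched in the promoter table. A gene with several windows was counted once if any of them held a match, among these 40 and among all 27025 genes of the table. GC boxes were found before 27 of the 40 (67.5%), against 35.4% of all genes. CCAAT boxes were found before 20 of 40 (50%, against 37.5%), NRF1 sites before 4 (10%, against 4.23%), half-sites before 6 (15.0%, against 15.8%) and sterol elements before 2 (5.0%, against 1.22%). TATA boxes were found before none of the 40, against 14.3% of all genes. These matches describe letters in a window and not binding. The 27025 genes were not limited to those expressed here, so the shares do not set fatty acid genes apart from expressed genes in general.

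Across the whole group, 17 genes were higher and 3 lower of 47 tested in the libraries labelled cKO (limma on log2(FPKM + 1), Benjamini-Hochberg adjusted p under 0.05 over 11603 genes). Of all genes tested, 5.87% were higher and 13.6% lower (19.5% in either direction), while of the fatty acid genes 36.2% were higher and 6.38% lower. The median log2 difference was 0.39 for the fatty acid genes and -0.17 for all genes tested. With median-of-ratios scaling, which moved the median of all genes to 0.03, 23 of the fatty acid genes were higher and 2 lower, beside 9% and 8.63% of all genes. The groups did not overlap, with the libraries labelled cKO above, for 24 of the 47 (12% of all genes tested), and with them below for 6 (30.9% of all genes tested). A two-sided exact permutation test gave p = 0.1 for each of these, the smallest that 3 against 3 libraries allow. The count of 3 lower became 1 without the library labelled cKO 1. The genes were chosen with results of these libraries known, so these shares are a description. In bulk libraries such as these, a change in the number of cells of a type and a change in RNA per cell cannot be told apart, and markers of spinous cells, sebocytes and melanocytes differed between the groups, as given below.

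Within mitochondrial oxidation, 7 of 17 genes were higher and 0 were lower, beside 5.87% and 13.6% of all genes tested. The median log2 difference of the 17 was 0.44. At an unadjusted p under 0.05, 10 were higher and 2 lower by limma, beside 10.1% and 24.6% of all genes tested. On the recovered fragments, limma-voom called 7 and 0, beside 5.33% and 13.2% of all genes. The 7 called by limma were Cpt1a and Cpt2, 1 of 4 acyl-CoA dehydrogenases, 1 of 3 electron transfer genes and 3 of 5 genes of the later steps. Summed over the 17 genes, the level came to 718, 741 and 688 FPKM in the libraries labelled cKO 1, 2 and 3, against 509, 517 and 481 FPKM in those labelled control 1, 2 and 3. The summed level was thus higher in each library labelled cKO than in any labelled control. Of the 17 genes, 12 had a log2 difference above 0 and 5 below 0.

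Of the carnitine palmitoyltransferases, the 2 among the 48 genes rose, while Cpt1c, outside them, was lower and Cpt1b was not called, as given below. Cpt1a, the rate-controlling enzyme of the outer membrane, had 41.2, 45.6 and 27.4 FPKM in the libraries labelled cKO 1, 2 and 3, against 12.5, 12.9 and 13.6 FPKM in those labelled control 1, 2 and 3 (log2 difference 1.45, SE 0.20, adjusted p = 0.00380). The library labelled cKO 3 was the lowest of its group and still stood above every library labelled control. Cpt2, the inner-membrane partner, had 7.48, 7.02 and 11.3 FPKM in the libraries labelled cKO, against 3.05, 3.54 and 2.31 FPKM in those labelled control (log2 difference 1.26, SE 0.24, adjusted p = 0.0111). Here the library labelled cKO 3 was the highest.

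Of the 4 acyl-CoA dehydrogenases, which carry out the first oxidation for chains of different length, only the very-long-chain enzyme Acadvl was called by limma at the setting used. It had 47.0, 51.1 and 58.0 FPKM in the libraries labelled cKO, against 33.4, 32.0 and 33.9 FPKM in those labelled control (log2 difference 0.63, SE 0.13, adjusted p = 0.0154). The groups did not overlap, but the call was lost with a replicate block and without the library labelled cKO 2, control 2 or control 3 (adjusted p up to 0.0598). Exons of Acadvl overlap 976 bases of Dvl2 on the opposite strand, and reads of the pair cannot be told apart without strand. Dvl2 itself had 12.3 to 14.9 FPKM in the libraries labelled cKO and 12.0 to 16.6 FPKM in those labelled control. The medium-chain gene Acadm averaged 36.6 ± 5.08 FPKM in the libraries labelled cKO and 26.6 ± 1.76 FPKM in those labelled control (SD, n = 3 each; limma adjusted p = 0.0731), without overlap. It was called with median-of-ratios scaling (log2 difference 0.66, adjusted p = 0.0445). The long-chain gene Acadl averaged 24.0 ± 8.91 and 39.2 ± 8.51 FPKM in the libraries labelled cKO and control (limma adjusted p = 0.126). The short-chain gene Acads averaged 13.1 ± 4.11 and 19.0 ± 2.47 FPKM in the libraries labelled cKO and control (limma adjusted p = 0.144). Acadl and Acads thus lay on the other side of 0 from Acadvl and Acadm, without passing the test.

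The electron transfer flavoprotein takes electrons from these dehydrogenases. Etfa, its alpha subunit, had 10.5, 9.64 and 11.4 FPKM in the libraries labelled cKO, against 6.33, 5.88 and 6.73 FPKM in those labelled control (log2 difference 0.65, SE 0.16, adjusted p = 0.0300). The call was lost without the library labelled cKO 1, cKO 2, control 1, control 2 or control 3 (adjusted p up to 0.101) and with a replicate block, although no library crossed over. The beta subunit gene Etfb averaged 61.0 ± 3.85 FPKM in the libraries labelled cKO and 46.5 ± 4.54 FPKM in those labelled control (SD, n = 3 each; limma adjusted p = 0.0742), and 57.7% of its 50-base words also occur in another gene. The dehydrogenase gene Etfdh, which passes the electrons to ubiquinone, averaged 28.9 ± 1.96 and 26.2 ± 5.05 FPKM in the libraries labelled cKO and control (limma adjusted p = 0.561).

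Of the 5 genes of the later steps, 3 rose. Acaa2, the thiolase that ends each cycle for medium chains, had 138, 152 and 125 FPKM in the libraries labelled cKO 1, 2 and 3, against 53.2, 69.8 and 63.6 FPKM in those labelled control 1, 2 and 3 (log2 difference 1.15, SE 0.14, adjusted p = 0.00268). It had the highest level of the 17 genes in the libraries labelled cKO. Hadh, the dehydrogenase for shorter chains, had 76.1, 76.9 and 97.8 FPKM in the libraries labelled cKO, against 45.7, 53.2 and 50.4 FPKM in those labelled control (log2 difference 0.73, SE 0.14, adjusted p = 0.0131). Echs1, the short-chain hydratase, averaged 72.5 ± 7.77 and 52.9 ± 7.55 FPKM in the libraries labelled cKO and control (SD, n = 3 each) and did not pass (limma adjusted p = 0.0722). It passed with median-of-ratios scaling (log2 difference 0.67, adjusted p = 0.0161).

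Hadha and Hadhb encode the alpha and beta subunits of the mitochondrial trifunctional protein, which works on long chains, and share the promoter interval printed above. Hadhb had 31.8, 30.2 and 25.9 FPKM in the libraries labelled cKO 1, 2 and 3, against 15.6, 14.9 and 16.8 FPKM in those labelled control 1, 2 and 3 (log2 difference 0.85, SE 0.14, adjusted p = 0.00796). Hadha had 84.5, 88.8 and 91.2 FPKM in the libraries labelled cKO, against 86.3, 68.3 and 59.4 FPKM in those labelled control (log2 difference 0.32, SE 0.15, adjusted p = 0.186), so the library labelled control 1 reached the level of those labelled cKO. The ratio of Hadhb to Hadha came to 0.376, 0.340 and 0.284 in the libraries labelled cKO, against 0.181, 0.219 and 0.283 in those labelled control. A two-sided exact permutation test of the log ratio gave p = 0.1, the smallest possible, and the nearest libraries of the groups almost met. Of the 50-base words in Hadhb transcripts, 57.5% also occur in a transcript of another gene, mostly Gm13910, so its level depends on how shared reads were assigned.

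Of the genes of the accessory steps for unsaturated chains, the 3 among the 48 were not called. Ech1, outside them, was higher, as given below. Eci1, an isomerase, averaged 8.72 ± 2.23 and 8.97 ± 1.57 FPKM in the libraries labelled cKO and control (SD, n = 3 each; limma adjusted p = 0.899). Eci2, another isomerase, had 24.5, 27.0 and 6.92 FPKM in the libraries labelled cKO 1, 2 and 3, against 20.7, 26.5 and 23.1 FPKM in those labelled control 1, 2 and 3. The difference in Eci2 (log2 difference -0.45, limma adjusted p = 0.508) lay in the library labelled cKO 3, and without it the value was 0.13. Decr1, the dienoyl-CoA reductase, had 2.74, 2.96 and 0.992 FPKM in the libraries labelled cKO, against 5.28, 6.89 and 4.07 FPKM in those labelled control (log2 difference -1.03, SE 0.32, adjusted p = 0.0568). Decr1 did not overlap between the groups and was not called.

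**Figure D1:**
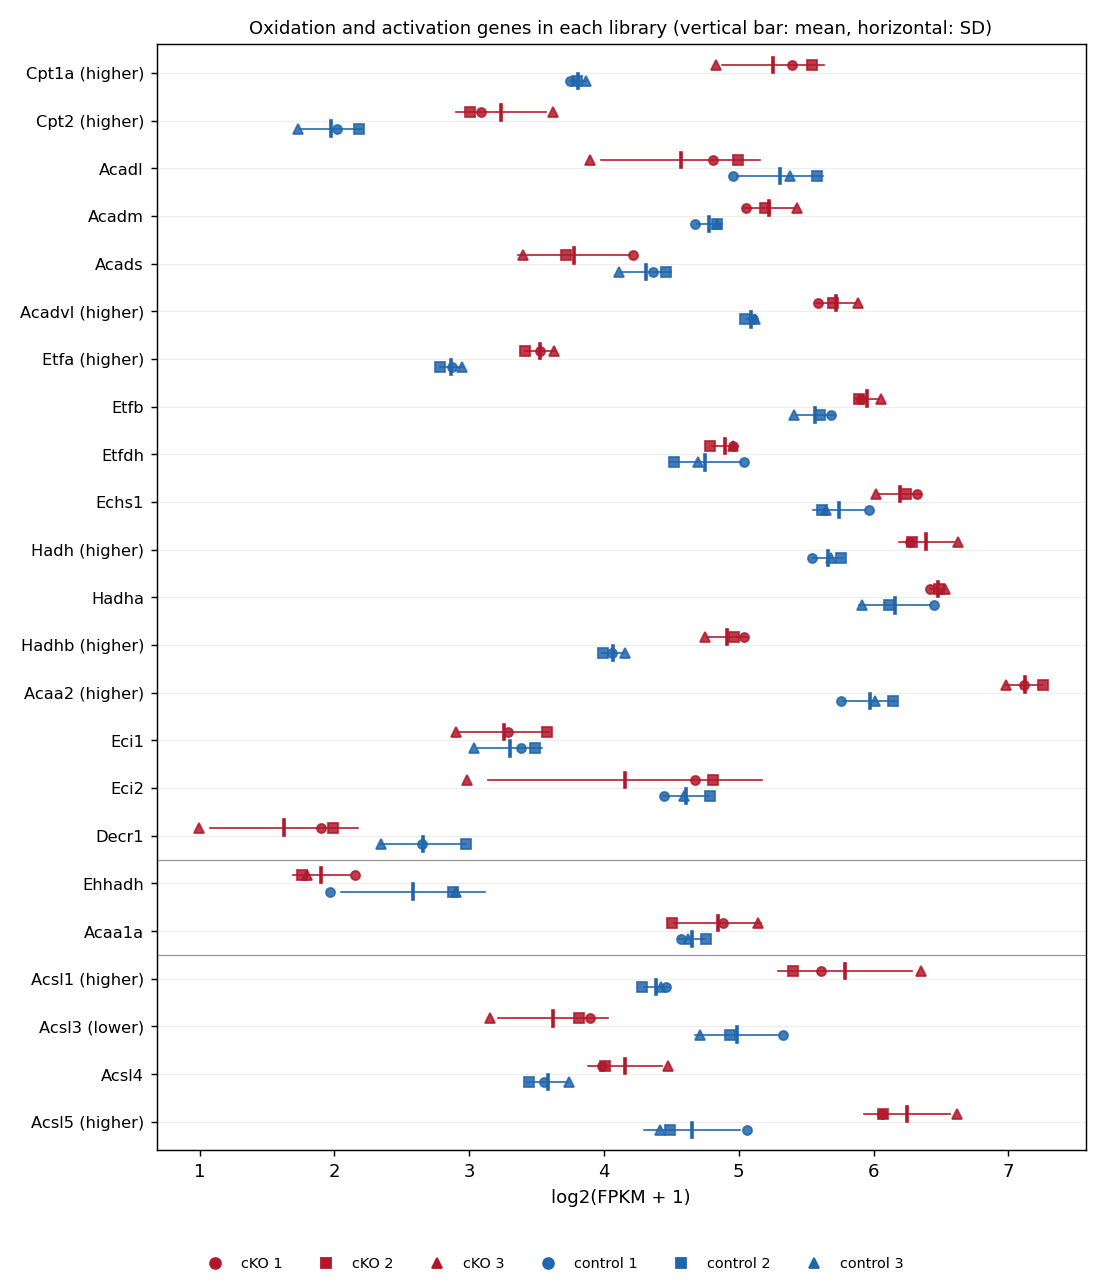
Level of each oxidation and activation gene in log2(FPKM + 1), with the libraries labelled cKO (red) above those labelled control (blue) in each row; symbols mark the libraries, vertical bars the mean and horizontal bars the SD (n = 3). Genes called by limma carry the direction in their label, and lines separate mitochondrial oxidation, peroxisomal oxidation and activation: Cpt1a, Acaa2 and Acsl5 have gaps between the groups, while Eci2 and Acadl have a wide spread among the libraries labelled cKO.

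The 2 genes of peroxisomal oxidation were not called. Ehhadh, the bifunctional enzyme of peroxisomes, had 3.44, 2.39 and 2.48 FPKM in the libraries labelled cKO 1, 2 and 3, against 2.91, 6.35 and 6.47 FPKM in those labelled control 1, 2 and 3 (log2 difference -0.68, SE 0.30, adjusted p = 0.146). The library labelled control 1 lay within the range of those labelled cKO, and without it Ehhadh was called lower (log2 difference -0.99). Acaa1a, a peroxisomal thiolase, had 28.5, 21.7 and 34.3 FPKM in the libraries labelled cKO, against 22.8, 26.1 and 23.7 FPKM in those labelled control (log2 difference 0.19, adjusted p = 0.496). Neither gene reached an unadjusted p under 0.05 by limma, and limma-voom called 0 of them.

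The 4 long-chain acyl-CoA synthetases moved in both directions. Acsl5 had 66.0, 66.0 and 97.2 FPKM in the libraries labelled cKO 1, 2 and 3, against 32.4, 21.4 and 20.3 FPKM in those labelled control 1, 2 and 3 (log2 difference 1.59, SE 0.23, adjusted p = 0.00413). Acsl1 had 47.8, 41.3 and 80.8 FPKM in the libraries labelled cKO, against 21.0, 18.5 and 20.4 FPKM in those labelled control (log2 difference 1.40, SE 0.24, adjusted p = 0.00822). For both, every library labelled cKO lay above every library labelled control, and cKO 3 was the highest. Acsl3, known for its part in lipid droplet formation, fell to 13.9, 13.1 and 7.91 FPKM in the libraries labelled cKO, against 39.1, 29.6 and 25.2 FPKM in those labelled control (log2 difference -1.37, SE 0.25, adjusted p = 0.00966). In Acsl3 the library labelled cKO 3 was the lowest of the 6. Acsl4, which prefers arachidonic acid, averaged 17.1 ± 3.62 and 11.02 ± 1.27 FPKM in the libraries labelled cKO and control (SD, n = 3 each; limma adjusted p = 0.0704) and was called with median-of-ratios scaling (adjusted p = 0.0486).

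Among the elongation genes, 5 of the 10 tested were higher and 0 lower, beside 5.87% and 13.6% of all genes tested. The median log2 difference of the 10 was 0.67. At an unadjusted p under 0.05, 6 were higher and 2 lower by limma, the lower ones near the share of all genes (10.1% higher and 24.6% lower), and limma-voom called 5 and 0 (5.33% and 13.2% of all genes). The 5 became 3 without the library labelled cKO 1 or cKO 2, and 2 without control 2 or control 3 or with a replicate block. Summed over all 11 genes the level came to 672, 644 and 775 FPKM in the libraries labelled cKO 1, 2 and 3, against 482, 428 and 402 FPKM in those labelled control 1, 2 and 3. As in oxidation, the sum in each library labelled cKO stood above that in each labelled control. Tecr and Elovl4 carried much of this, averaging 320 and 144 FPKM in the libraries labelled cKO, against 171 and 70.8 FPKM in those labelled control. Of the 10 tested genes, 7 had a log2 difference above 0 and 3 below 0.

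Elongases of the ELOVL family carry out the condensation step and differ in the chains they accept. Elovl4, which makes the ultra-long chains of skin acylceramides, had 134.5, 132.6 and 165 FPKM in the libraries labelled cKO 1, 2 and 3, against 62.6, 79.2 and 70.7 FPKM in those labelled control 1, 2 and 3 (log2 difference 1.01, SE 0.14, adjusted p = 0.00408). It was the elongase with the highest level in every library. Elovl6, which extends palmitate to stearate, had 15.4, 14.2 and 17.6 FPKM in the libraries labelled cKO, against 9.72, 7.89 and 3.80 FPKM in those labelled control (log2 difference 1.11, SE 0.30, adjusted p = 0.0371). The call of Elovl6 was lost without any single library but control 1 (adjusted p up to 0.0852), with a replicate block (adjusted p = 0.0709) and with no filter on low values (adjusted p = 0.0727).

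The other elongases were not called. Elovl1, which acts on saturated very long chains, averaged 26.0 ± 6.28 and 16.9 ± 2.73 FPKM in the libraries labelled cKO and control (SD, n = 3 each; limma adjusted p = 0.0838), without overlap. Elovl5, which extends polyunsaturated chains, averaged 10.7 ± 0.934 and 15.4 ± 2.02 FPKM in the libraries labelled cKO and control (limma adjusted p = 0.0770), again without overlap but with the libraries labelled cKO below. Elovl7 averaged 23.8 ± 3.21 and 26.1 ± 1.27 FPKM in the libraries labelled cKO and control (limma adjusted p = 0.543). Elovl3, an elongase known from sebaceous glands and brown fat, was too low to test, at 1.64, 2.51 and 0.590 FPKM (109, 169 and 42 fragments) in the libraries labelled cKO, against 0.128, 0 and 0.340 FPKM (8, 0 and 22 fragments) in those labelled control. Every library labelled cKO held more Elovl3 fragments than any labelled control.

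The remaining steps of the elongation cycle are served by single enzymes or small families. Tecr, the enoyl reductase of the last step, had the highest level of all 48 genes, at 308, 294 and 357 FPKM in the libraries labelled cKO 1, 2 and 3, against 191, 157 and 166 FPKM in those labelled control 1, 2 and 3 (log2 difference 0.90, SE 0.13, adjusted p = 0.00441). Hsd17b12, the ketoacyl reductase of the second step, had 95.7, 90.4 and 99.1 FPKM in the libraries labelled cKO, against 118, 82.8 and 67.9 FPKM in those labelled control (log2 difference 0.12, SE 0.20, adjusted p = 0.696). So the reductase of the last step differed by more than the spread between libraries, and for that of the second step the libraries labelled control spanned those labelled cKO.

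The dehydratases of the third step are the HACD family. Hacd3 had 42.5, 42.3 and 62.9 FPKM in the libraries labelled cKO, against 30.4, 28.5 and 25.9 FPKM in those labelled control (log2 difference 0.76, SE 0.18, adjusted p = 0.0267). Hacd2 had 7.57, 7.30 and 7.01 FPKM in the libraries labelled cKO, against 3.23, 4.30 and 4.04 FPKM in those labelled control (log2 difference 0.78, SE 0.18, adjusted p = 0.0239). Both calls were lost with a replicate block and without the library labelled control 2 or control 3, that of Hacd3 also without control 1, and that of Hacd2 also when cKO 1 or cKO 2 was left out (largest adjusted p 0.0907). Hacd1, the member known from muscle, averaged 3.75 ± 1.95 and 7.79 ± 2.48 FPKM in the libraries labelled cKO and control (SD, n = 3 each; limma adjusted p = 0.115).

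**Figure D2:**
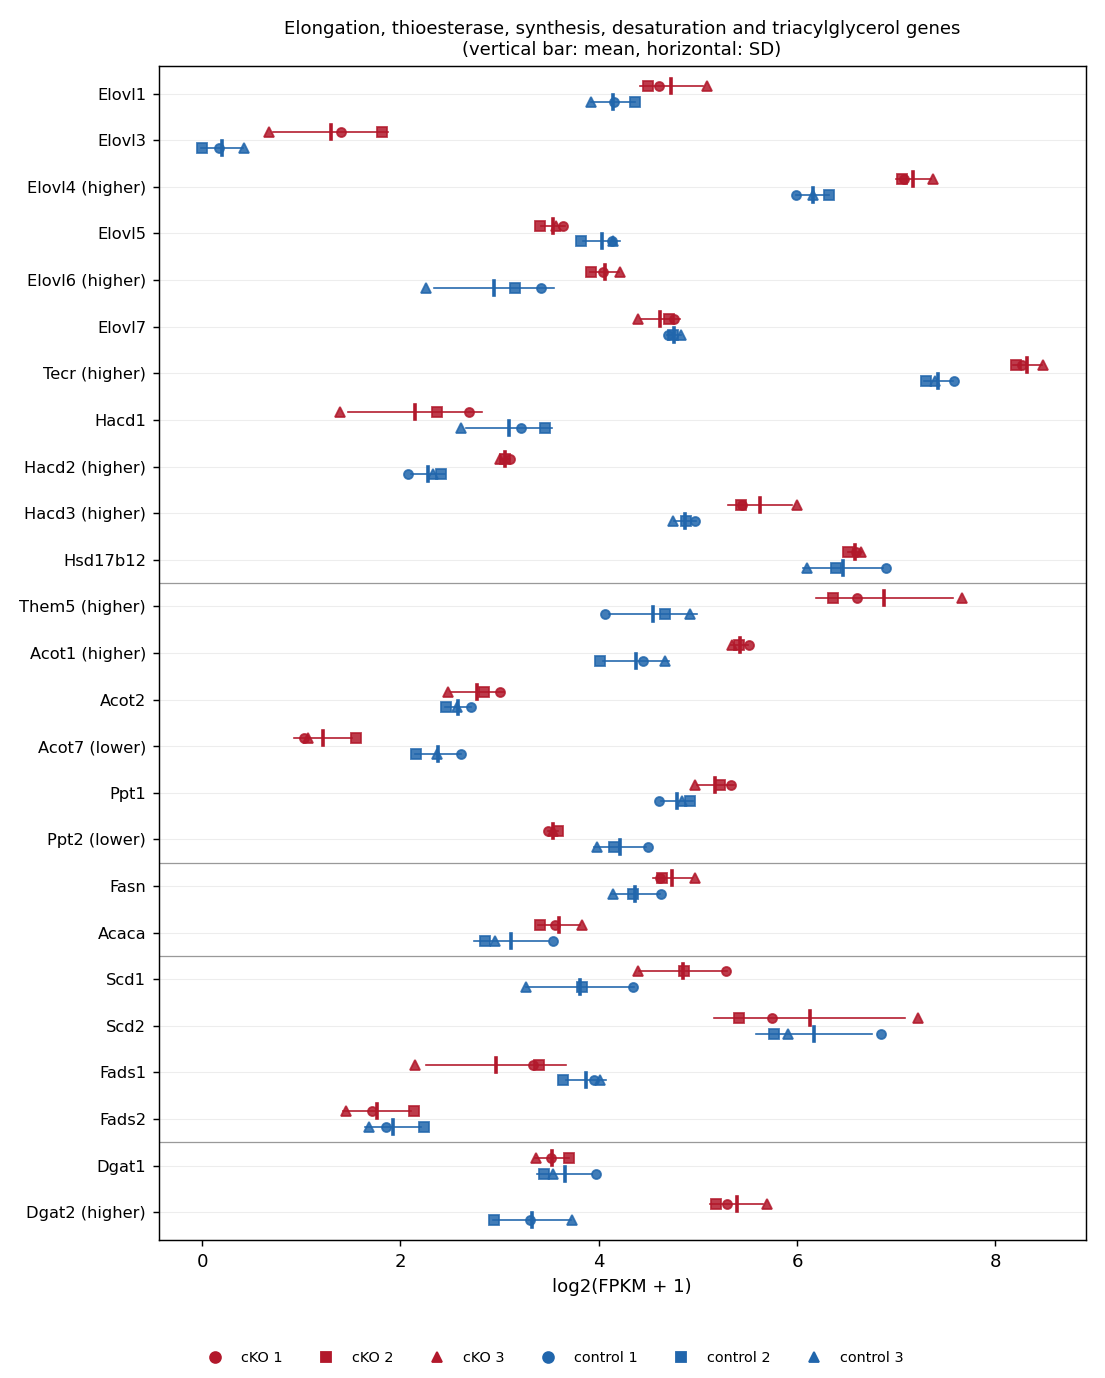
Level of each elongation, thioesterase, synthesis, desaturation and triacylglycerol gene in log2(FPKM + 1), with the libraries labelled cKO (red) above those labelled control (blue); vertical bars show the mean, horizontal bars the SD (n = 3), and lines separate the roles. Tecr and Elovl4 are high in every library and apart between the groups, and Scd2 overlaps fully.

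Thioesterases release free fatty acid from acyl-CoA or acyl chains from proteins. They went both ways, 2 higher and 2 lower of 6 (33.3% each, beside 5.87% and 13.6% of all genes tested). Them5, a mitochondrial thioesterase, had the largest difference of the 47 genes tested. It had 96.5, 81.4 and 202 FPKM in the libraries labelled cKO 1, 2 and 3, against 15.7, 24.4 and 29.2 FPKM in those labelled control 1, 2 and 3 (log2 difference 2.33, SE 0.36, adjusted p = 0.00525). The library labelled cKO 3 held more than 2 times the level of the other libraries of its group, and without it the log2 difference was 1.94. Acot7, a cytosolic enzyme known from brain, fell to 1.04, 1.94 and 1.09 FPKM in the libraries labelled cKO, against 5.12, 3.45 and 4.15 FPKM in those labelled control (log2 difference -1.16, SE 0.24, adjusted p = 0.0157). The call of Acot7 was lost with a replicate block and without the library labelled cKO 1 or control 3 (adjusted p up to 0.0596).

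Acot1 and Acot2 encode a cytosolic and a mitochondrial acyl-CoA thioesterase and are neighbours on chromosome 12. Acot1 had 44.7, 41.6 and 39.5 FPKM in the libraries labelled cKO 1, 2 and 3, against 20.8, 15.1 and 24.4 FPKM in those labelled control 1, 2 and 3 (log2 difference 1.05, SE 0.19, adjusted p = 0.00920). Acot2 had 7.04, 6.17 and 4.58 FPKM in the libraries labelled cKO, against 5.57, 4.48 and 4.92 FPKM in those labelled control (log2 difference 0.20, SE 0.21, adjusted p = 0.533). The cytosolic form was thus both the more abundant per length and the one that passed the test. Of the 50-base words in Acot1 transcripts, 23.5% also occur in Acot2, and 24.5% of those in Acot2 occur in Acot1, so part of the reads cannot be assigned by sequence. Summed over both genes the level came to 51.7, 47.8 and 44.1 FPKM in the libraries labelled cKO, against 26.4, 19.6 and 29.4 FPKM in those labelled control, without overlap (exact permutation test, two-sided, p = 0.1, the smallest possible).

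The palmitoyl-protein thioesterases act in lysosomes. Ppt2 fell to 10.2, 11.01 and 10.6 FPKM in the libraries labelled cKO, against 21.6, 16.8 and 14.8 FPKM in those labelled control (log2 difference -0.67, SE 0.18, adjusted p = 0.0352). The call of Ppt2 was lost with median-of-ratios scaling (log2 difference -0.46, adjusted p = 0.131), with quantile normalization and in both limma-voom fits. The Ppt2 call was also lost with a replicate block and without the library labelled cKO 1, cKO 2, control 1 or control 2 (adjusted p up to 0.105). Of its 50-base words, 32.3% also occur in Gm20460, annotated on the same strand. Ppt1 had 39.4, 36.3 and 30.4 FPKM in the libraries labelled cKO 1, 2 and 3, against 23.3, 29.3 and 27.6 FPKM in those labelled control 1, 2 and 3. It averaged 35.3 ± 4.55 and 26.7 ± 3.05 FPKM in the libraries labelled cKO and control (SD, n = 3 each, limma adjusted p = 0.123). Ppt1 was called higher with median-of-ratios scaling (adjusted p = 0.0226). The 2 lower thioesterases became 0 without the library labelled cKO 1 and 1 without any other but cKO 3.

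Synthesis of new fatty acids did not pass the test. Fasn, the fatty acid synthase, had 23.5, 23.9 and 30.3 FPKM in the libraries labelled cKO 1, 2 and 3, against 23.7, 19.3 and 16.6 FPKM in those labelled control 1, 2 and 3 (log2 difference 0.37, SE 0.18, adjusted p = 0.184). Acaca, the acetyl-CoA carboxylase that supplies malonyl-CoA, had 10.8, 9.64 and 13.2 FPKM in the libraries labelled cKO, against 10.7, 6.22 and 6.74 FPKM in those labelled control (log2 difference 0.48, SE 0.23, adjusted p = 0.179). The library labelled control 1 lay among those labelled cKO for both genes. Of the 50-base words in Acaca transcripts, 49.1% also occur in Gm5182. Neither gene reached an unadjusted p under 0.05 by limma, and limma-voom called 0.

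Of the 4 desaturase genes, none was called by limma, and 1 was higher and 1 lower at an unadjusted p under 0.05. By limma-voom 0 were called, or 1 higher with median-of-ratios scaling. Scd1, which makes monounsaturated chains and is known from sebaceous glands, had 38.0, 28.1 and 20.1 FPKM in the libraries labelled cKO 1, 2 and 3, against 19.4, 13.2 and 8.59 FPKM in those labelled control 1, 2 and 3 (log2 difference 1.03, SE 0.32, adjusted p = 0.0562). The nearest libraries, cKO 3 and control 1, lay close together. Scd1 was called higher with median-of-ratios scaling (adjusted p = 0.0270), with a replicate block and without the library labelled cKO 3 or control 1. Scd2, its close relative, had 52.6, 41.7 and 148 FPKM in the libraries labelled cKO, against 114, 53.4 and 59.3 FPKM in those labelled control (log2 difference -0.05, SE 0.48, adjusted p = 0.958). The library labelled cKO 3 was the highest of the 6 for Scd2 and the lowest of its group for Scd1: the ratio of Scd2 to Scd1 came to 1.39, 1.48 and 7.40 in the libraries labelled cKO 1, 2 and 3, against 5.87, 4.04 and 6.90 in those labelled control. The front-end desaturase gene Fads1 averaged 7.37 ± 3.42 and 13.7 ± 1.96 FPKM in the libraries labelled cKO and control (SD, n = 3 each; limma adjusted p = 0.0988), and Fads2 averaged 2.46 ± 0.845 and 2.84 ± 0.779 FPKM in the libraries labelled cKO and control (limma adjusted p = 0.698).

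The last step of triacylglycerol synthesis can be made by either of 2 unrelated enzymes. Dgat2 had 38.3, 35.4 and 50.7 FPKM in the libraries labelled cKO 1, 2 and 3, against 8.92, 6.71 and 12.3 FPKM in those labelled control 1, 2 and 3 (log2 difference 2.06, SE 0.23, adjusted p = 0.00202). Dgat1 had 10.5, 12.0 and 9.28 FPKM in the libraries labelled cKO, against 14.7, 9.95 and 10.6 FPKM in those labelled control (log2 difference -0.13, SE 0.20, adjusted p = 0.682). Dgat2 had the smallest adjusted p of the 47 genes, while the groups overlapped for Dgat1. Per length, Dgat2 stood above Dgat1 in all 3 libraries labelled cKO and in control 3 only among those labelled control.

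**Figure D3:**
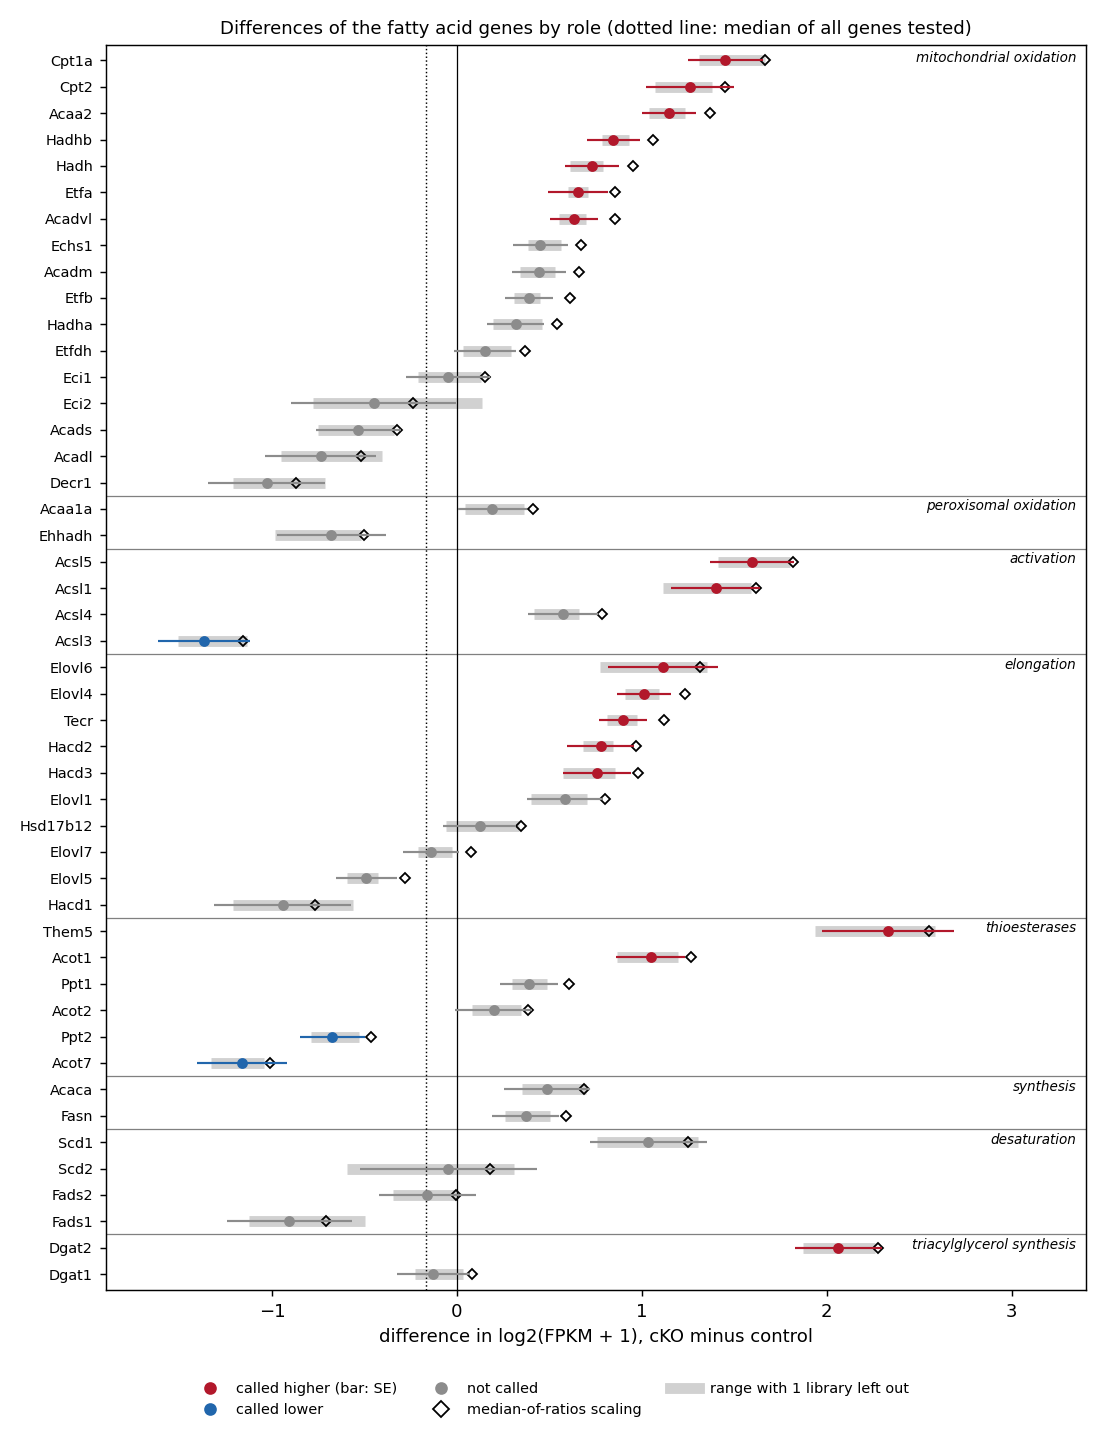
Difference in log2(FPKM + 1), libraries labelled cKO minus those labelled control, for the 47 genes tested, ordered within each role; filled circles with SE bars are coloured by call, open diamonds give the value with median-of-ratios scaling, grey bands the range when 1 library is left out, and the dotted line the median of all genes tested at -0.17. Scaling shifts every gene upward by a similar amount, and Them5 and Dgat2 lie farthest to the right.

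Of the 20 calls, 13 were made in the same direction under each of the 18 alternatives: Cpt1a, Cpt2, Hadh, Hadhb, Acaa2, Acsl1, Acsl5, Elovl4, Tecr, Them5, Acot1 and Dgat2 among the higher genes and Acsl3 among the lower. The other 7 were Acadvl, Etfa, Elovl6, Hacd2, Hacd3, Acot7 and Ppt2. The library labelled cKO 3 was the highest of the 6 for 21 of the 47 genes (44.7%, against 15.0% of all genes tested) and the lowest for 11 (23.4%, against 44.0%). The other libraries were the highest for 4 to 7 of the 47.

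Of 35 other oxidation genes, 30 were tested, and 5 were higher and 4 lower, beside 5.87% and 13.6% of all genes, so that the share of lower ones was near that of all genes. The higher ones included Slc25a20, the carnitine-acylcarnitine carrier between the 2 carnitine palmitoyltransferases, at 17.1, 17.4 and 13.9 FPKM in the libraries labelled cKO, against 7.35, 8.58 and 6.99 FPKM in those labelled control (log2 difference 0.99, adjusted p = 0.00815). Each of these libraries labelled cKO lay above each labelled control, as for Cpt1a and Cpt2. Acad9, an acyl-CoA dehydrogenase also needed for complex I assembly, rose by 1.08 (adjusted p = 0.00899), Ech1, an isomerase for unsaturated chains, by 0.79 (adjusted p = 0.0116), and Pecr, a peroxisomal enoyl reductase, by 1.18 (adjusted p = 0.00352). Cpt1c, a relative of Cpt1a known from brain, fell by 1.79 (adjusted p = 0.0120), and Acox3, a peroxisomal oxidase, by 0.68 (adjusted p = 0.0298). The muscle form Cpt1b, named after its values were seen, had 1.87, 1.57 and 1.64 FPKM in the libraries labelled cKO, against 4.02, 4.94 and 2.43 FPKM in those labelled control, without overlap (log2 difference -0.80, adjusted p = 0.0614). The 4 lower became 1 with median-of-ratios scaling and without the library labelled cKO 1, cKO 2, control 1 or control 2, and 2 without cKO 3 or control 3 or with a replicate block. Acox3 lost its call under that scaling and when cKO 1, cKO 2 or any library labelled control was left out (largest adjusted p 0.107).

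Other synthesis, desaturation and elongation genes had 1 higher and 1 lower of 16 tested (6.25% each). Of all genes, 5.87% were higher and 13.6% lower, so the share of higher ones was near that of all genes. Me1, the malic enzyme that supplies NADPH for synthesis, had 18.3, 14.8 and 15.7 FPKM in the libraries labelled cKO, against 2.51, 4.58 and 5.16 FPKM in those labelled control (log2 difference 1.80, adjusted p = 0.00349). Fads3 fell by 1.505 (adjusted p = 0.0245), a call lost without the library labelled cKO 1, control 2 or control 3 (adjusted p up to 0.0900). Leaving out cKO 3, or median-of-ratios scaling, gave 2 higher in this list. Srebf1, which encodes the main transcription factor of fatty acid synthesis, was not called (log2 difference -0.10, adjusted p = 0.653), nor was the ATP citrate lyase gene Acly (-0.15, adjusted p = 0.681). Srebf1 and Acly were named after their values were seen.

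Glycerolipid synthesis and lipolysis genes had 3 higher and 3 lower of 17 tested, beside 5.87% and 13.6% of all genes. Mgll, the monoacylglycerol lipase, fell to 14.4, 14.9 and 5.11 FPKM in the libraries labelled cKO, against 78.1, 40.6 and 38.1 FPKM in those labelled control (log2 difference -2.14, adjusted p = 0.0127). Pnpla2, the triacylglycerol lipase, fell by 1.27 (adjusted p = 0.0281) and Lpin1, a phosphatidate phosphatase, by 1.22 (adjusted p = 0.0239). Agpat3, an acyltransferase, rose by 0.99 (adjusted p = 0.0245), Pnpla1, which makes acylceramide, by 1.01 (adjusted p = 0.0215), and Pnpla3 by 1.26 (adjusted p = 0.0389). Pnpla2 was no longer called when control 1, control 2 or control 3 was left out (adjusted p = 0.0717, 0.0949 and 0.0747) and with no filter (0.0608). Pnpla3 lost its call without any single library but control 3 (adjusted p up to 0.0949) and with both other pseudocounts or no filter. Without the library labelled control 1 or control 2 the count was 0 higher and 1 lower, and with no filter on low values 1 and 1.

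Uptake, binding and activation genes had 0 higher and 0 lower of 12 tested by limma, beside 5.87% and 13.6% of all genes. The same held at an unadjusted p under 0.05 and by limma-voom. The epidermal fatty acid binding protein gene Fabp5, named after its values were seen, had 643, 551 and 1176 FPKM in the libraries labelled cKO, against 418, 442 and 591 FPKM in those labelled control (log2 difference 0.64, adjusted p = 0.147). Other thioesterases had Acot9 lower of 6 tested (16.7%, near the 13.6% of all genes). The Acot9 difference was -0.97 (adjusted p = 0.0281), a call lost without the library labelled cKO 2, control 2 or control 3 (adjusted p up to 0.0961). None of the 6 was higher by limma or limma-voom (1 by limma with median-of-ratios scaling), and 1 was at an unadjusted p under 0.05. Of the 9 PPAR and coactivator genes tested, 1 was higher and 1 lower (11.1% each, beside 5.87% and 13.6% of all genes). Rxra, the partner receptor of the PPARs, was higher (0.67, adjusted p = 0.0130, and 0.0545 without the library labelled cKO 2). Pdk4, a PPAR target in many tissues, was lower (-0.95, adjusted p = 0.0458), a call that was lost when any one library but control 3 was left out (adjusted p up to 0.121), while without control 3 the gene fell under the mean required for a test. It was also lost with both other pseudocounts, no filter, both scalings, a replicate block and limma-voom (adjusted p up to 0.127). Ppard was at -0.09 (adjusted p = 0.694), and Ppara and Pparg were under 1 FPKM in every library; these 3 were named after their values were seen.

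Markers of other cell types moved with these genes, and their part in the differences was not tested. Of 7 spinous keratinocyte markers, 5 were higher and 0 lower by limma. They summed to 34674 to 68031 FPKM in the libraries labelled cKO, against 4578 to 6437 FPKM in those labelled control, with cKO 3 the highest. Most of the spinous sum was Krt1 and Krt10. Sbsn was not called (log2 difference -0.43, limma adjusted p = 0.0847) but lay lower in the libraries labelled cKO without overlap. Dsc1 was not called either (0.0095, limma adjusted p = 0.988). Of 9 sebocyte markers, 6 were tested and 2 were higher, and they summed to 1085 to 1228 FPKM in the libraries labelled cKO, against 219 to 287 FPKM in those labelled control. Most of the sebocyte sum was Krt79, a keratin also known from the follicle infundibulum, while Mc5r, Awat2 and Pparg were at most 1.04 FPKM in every library. The other sebocyte marker called higher was Far2, a fatty acyl-CoA reductase, with 2.75, 2.12 and 0.852 FPKM in the libraries labelled cKO, against 0.0589, 0.141 and 0.198 FPKM in those labelled control (log2 difference 1.30, limma adjusted p = 0.0238). Awat2 and Pparg, too low to test, were also without overlap, with the libraries labelled cKO above. Soat1, Cidea, Mgst1 and Insig2 were tested and not called (log2 differences 0.61, 1.02, 0.28 and -0.20). The groups overlapped for Cidea, Mgst1, Insig2 and the untested Mc5r. Granular keratinocyte markers summed to 18.8 to 32.6 FPKM in the libraries labelled cKO, against 4.36 to 12.6 FPKM in those labelled control. Of the 3 tested, the filaggrin gene Flg was higher (log2 difference 1.82, limma adjusted p = 0.00374). Lor was not called (1.81, limma adjusted p = 0.0559), with overlapping groups, but was higher with median-of-ratios scaling (adjusted p = 0.0350). Ivl was not called (0.25, limma adjusted p = 0.608), and its groups overlapped as well. All 7 melanocyte markers were lower, with sums of 167 to 359 FPKM in the libraries labelled cKO and 2785 to 3198 FPKM in those labelled control. Of 8 adipocyte markers, 4 had a row and summed to 1.07 to 2.92 FPKM in the libraries labelled cKO and 2.31 to 4.06 FPKM in those labelled control, nearly all of it Lpl, with Plin1, Fabp4 and Cidec at 0 in at least 5 of the 6 libraries. Skeletal muscle markers summed to 0.5502 to 0.859 and 1.02 to 4.52 FPKM in the libraries labelled cKO and control, and fibroblast markers to 148 to 456 and 108 to 361 FPKM in the libraries labelled cKO and control.

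**Figure D4:**
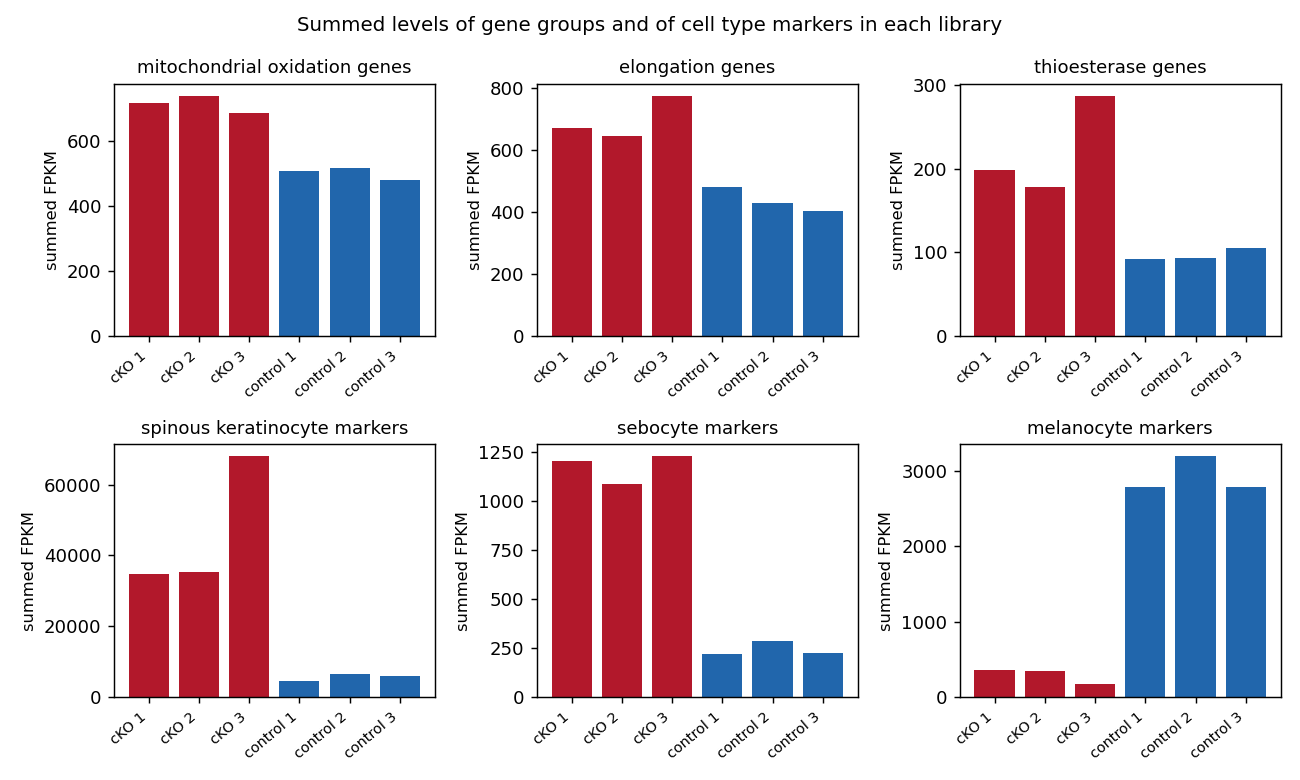
Summed FPKM in each library of the mitochondrial oxidation, elongation and thioesterase genes (top) and of the spinous keratinocyte, sebocyte and melanocyte markers (bottom), libraries labelled cKO in red and those labelled control in blue. The fatty acid gene sums drawn and the spinous and sebocyte sums are higher in each library labelled cKO, and the melanocyte sum is lower. Library cKO 3 is highest for elongation, thioesterase, spinous and sebocyte sums but not for oxidation. Of the sums not drawn, those of peroxisomal oxidation, synthesis and desaturation overlap between the groups. Those of activation and triacylglycerol synthesis are higher in each library labelled cKO. Most of the sebocyte sum is Krt79, and 2 of the 6 thioesterase genes were called lower.

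**Figure D5:**
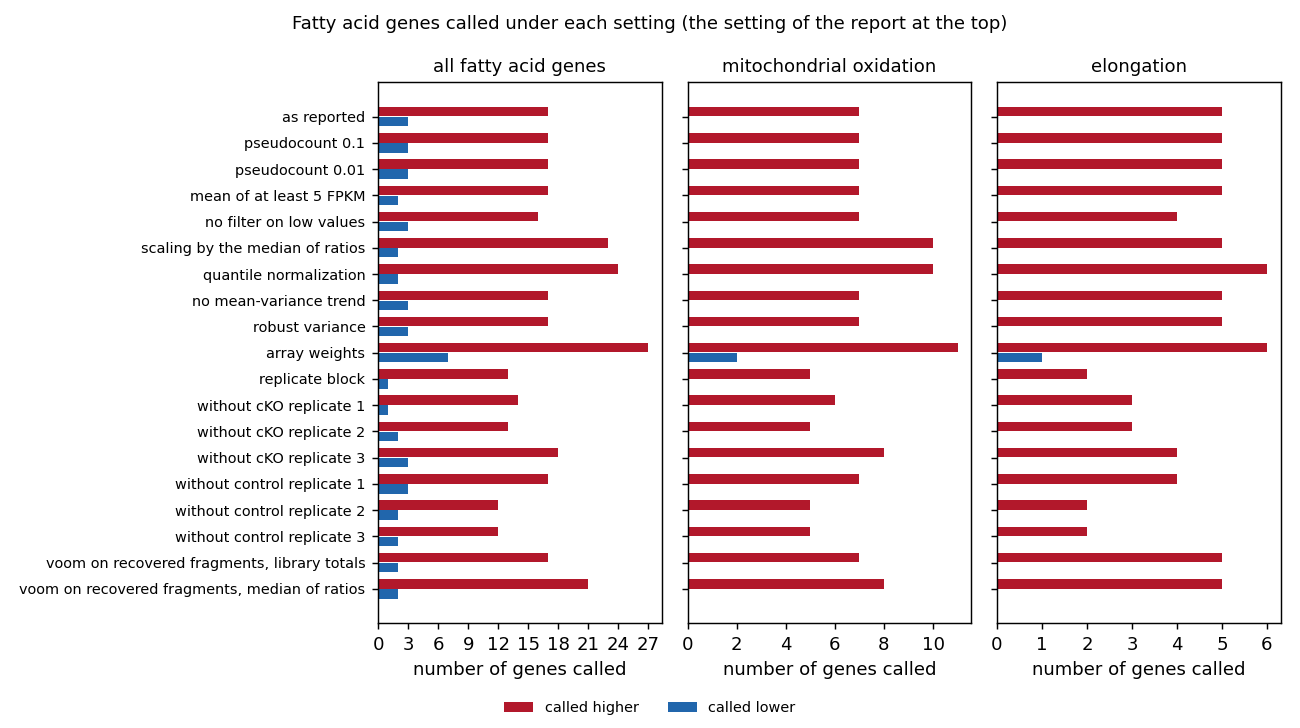
Number of fatty acid genes called higher (red) and lower (blue) under each setting, for all of them, for mitochondrial oxidation and for elongation. Genes called higher range from 12 to 27 in all, from 5 to 11 for oxidation and from 2 to 6 for elongation. Of all genes tested, 393 to 1423 were called higher under these settings.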

How the data were processed

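The authors deposited the 6 libraries as a single table of FPKM values per gene. Tools listed in the submitters' processing notes are HTSeq, HISAT2 and fastp, with GRCm39 as build. Their versions, the annotation release and any use of strand: not given in the sources used here. All 17025 genes had values that came out as whole fragments within a relative tolerance of 1e-09, which gave the library totals and fragments per gene.

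Tests used limma 3.58.1 (R 4.3.3) with a trended variance, comparing groups on log2(FPKM + 1) for the 11603 genes whose mean reached 1 FPKM. P-values were adjusted over these genes (Benjamini-Hochberg) and called under 0.05; differences are libraries labelled cKO minus those labelled control, and this scale understates the change of low genes. FPKM depends on what else takes up a library, so scalings were varied. Nothing states that libraries came from separate animals, so the p-values reflect only how these libraries vary, which may be technical.

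The genes, role groups, lists of other pathway genes and markers were chosen with earlier results of these data known. Genes given with every library are those called, the 2 of highest mean in each role, and Acot1 and Acot2; Eci2, Decr1, Hsd17b12 and Elovl3 were added after their values were seen; from each list, at most the 6 called genes of smallest adjusted p are named. The 16 alternatives chosen at first covered pseudocounts of 0.1 and 0.01, a minimum of 5 FPKM or none, 2 scalings, 3 variance settings, a replicate block and each library left out; limma-voom on the recovered fragments with 2 scalings was added after seeing the data. Fits were tested on simulated data. Shared words and overlaps used GENCODE M21 (GRCm38) transcripts and exons, by gene name alone. Figures were drawn with matplotlib 3.10.9.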

Additional observations from a re-analysis of the deposited data

How the results depend on the processing

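Under pseudocounts of 0.1 and 0.01, no mean-variance trend and robust variance, every one of the 47 tested genes kept its direction and its side of the threshold. Array weights gave 27 genes higher and 7 lower in all, 11 higher and 2 lower in mitochondrial oxidation and 1 lower in elongation. That setting called 1423 of all 11603 genes higher and 2831 lower, against 681 and 1576 at the setting used. Same-numbered libraries did not deviate together (correlations of -0.31, 0.08 and -0.26 over genes for replicates 1, 2 and 3). Deviations from a mean of 3 libraries depend on one another, so these correlations cannot exclude that the numbers pair libraries. A replicate block gave 13 higher and 1 lower in all, 5 higher in mitochondrial oxidation and 2 higher in elongation. With that block, 432 of all 11603 genes were higher and 893 lower. With 1 library left out, 12 to 18 were higher and 1 to 3 lower in all, 5 to 8 higher in mitochondrial oxidation and 2 to 4 higher in elongation. Of the 11537 to 11673 genes tested in those fits, 393 to 713 were higher and 710 to 1453 lower.

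Directions that turned belonged to genes that were not called. With median-of-ratios scaling Dgat1 was at 0.080, Eci1 at 0.15, Elovl7 at 0.077 and Scd2 at 0.18. Quantile normalization gave Dgat1 0.068, Eci1 0.14, Elovl7 0.042, Fads2 0.072 and Scd2 0.042. Array weights gave Dgat1 0.053, Eci1 0.15 and Eci2 0.041, and limma-voom with the median of ratios gave Dgat1 0.070, Eci1 0.15, Elovl7 0.057 and Scd2 0.15. With 1 library left out, the log2 difference ranged between -0.59 and 0.31 for Scd2, -0.21 and 0.13 for Eci1, -0.78 and 0.13 for Eci2, -0.23 and 0.031 for Dgat1 and -0.057 and 0.34 for Hsd17b12. The cause of these changes was not tested. Each tested gene had at least 59 fragments in every library, while Elovl3, with 0 to 169, was too low to test.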
